A study of Mus musculus with 10 samples.

Results

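The miR-199 and miR-214 microRNAs, which mark fibroblasts and other mesenchymal cells, were read on 10 mouse microarrays as the probes whose names have the stem miR-199a, miR-199b or miR-214, on either arm. There were 5 such probes among the 1892 miRNAs of the array, listed as mmu-miR-199a-3p, mmu-miR-199a-5p, mmu-miR-199b-5p, mmu-miR-214-3p and mmu-miR-214-5p and written below without the species prefix. By their titles 5 arrays hold T-C cell and 5 hold control cell RNA. The T-C cell samples have the source Col-/- and a stated dose of 0.5 mg TN-CF for 100000 T-C cells in a dish over 24 hours, and the control cell samples have the source Control Col. The samples of both groups are male, described as sle liver and grown by a mouse liver cell culture protocol. The labels do not say what TN-CF, T-C, Col or sle stand for, the design text writes TB-CF, and neither strain nor age is stated. Treatment and source differ together between the groups and cannot be told apart. No label tells whether replicates were separate animals, separate dishes or repeat measurements, so the p-values below rest on a spread that could be purely technical.

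A microRNA is cut from a folded precursor, the hairpin, whose 5p and 3p arms can each be loaded into an Argonaute protein and silence mRNAs that pair with bases 2 to 8, the seed. miR-199a and miR-214 are made from Dnm3os, a non-coding RNA switched on in embryonic mesenchyme by Twist1. In liver they are known from hepatic stellate cells, the pericytes that turn into collagen-producing myofibroblasts, and from fibrotic tissue, which makes them a common readout of stromal content. Targets described for miR-199a-5p include caveolin 1, and miR-214-3p is known for lowering Ezh2.

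The mature sequences of the 5 probes, from the deposited files, are shown because they decide which hairpins a probe can report on. The seed is in capitals.
miR-199a-3p: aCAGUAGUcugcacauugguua
miR-199a-5p: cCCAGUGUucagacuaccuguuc
miR-199b-5p: cCCAGUGUuuagacuaccuguuc
miR-214-3p: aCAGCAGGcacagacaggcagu
miR-214-5p: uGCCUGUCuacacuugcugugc
miR-199a-5p and miR-199b-5p share their seed and differ by a single substitution, C10U, counted from 1 at the 5′ end of miR-199a-5p, so the 2 probes may share signal. The miR-199a-3p sequence is also that of miR-199b-3p, and its probe stands for both. Outside these 5 probes, no miRNA of the array has the seed of miR-199a-3p, miR-199a-5p or miR-214-5p. The seed of miR-214-3p is shared by 1 other, miR-761, whose probe was above background on 1 of 10 arrays. The lengths are 22 or 23 bases, and the GC content runs from 40.9% in miR-199a-3p to 59.1% in miR-214-3p.

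The hairpins are shown next, from RefSeq on GRCm38.p6, with the bases of the array's probes in capitals.
Mir199a-2: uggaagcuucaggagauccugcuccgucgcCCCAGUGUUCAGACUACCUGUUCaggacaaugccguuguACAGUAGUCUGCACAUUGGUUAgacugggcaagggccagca
Mir199a-1: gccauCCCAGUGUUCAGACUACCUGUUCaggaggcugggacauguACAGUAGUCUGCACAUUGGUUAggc
Mir199b: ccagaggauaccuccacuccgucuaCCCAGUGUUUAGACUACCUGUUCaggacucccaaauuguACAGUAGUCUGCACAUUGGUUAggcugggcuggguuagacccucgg
Mir214: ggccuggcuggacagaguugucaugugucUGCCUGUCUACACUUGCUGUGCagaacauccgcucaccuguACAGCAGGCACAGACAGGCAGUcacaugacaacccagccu
Mir199a-2 (chr1:162217814-162217923, plus strand) and Mir214 (chr1:162223368-162223477, plus strand) lie 5444 bases apart. Both overlap an exon of Dnm3os (chr1:162217623-162225550, plus strand in GENCODE M21) and an intron of Dnm3, a dynamin gene on the other strand. Mir199a-1 (chr9:21496495-21496564, minus strand) lies opposite an intron of Dnm2, and Mir199b (chr2:32318460-32318569, plus strand) opposite an intron of Dnm1. The miR-199a-3p probe therefore sums 3 hairpins on chromosomes 1, 2 and 9, the miR-199a-5p probe sums 2, and the miR-199b-5p and miR-214 probes match 1 hairpin each.

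**Figure D1:**
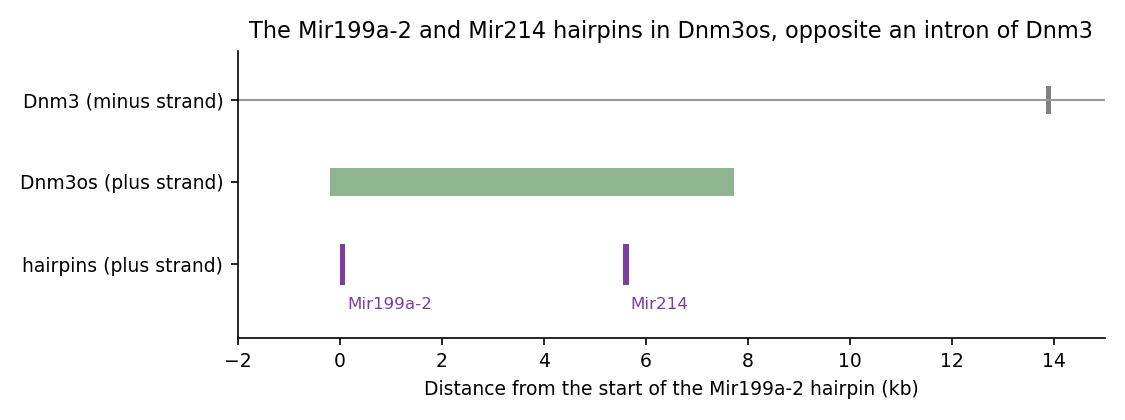
Map of the chromosome 1 cluster, with distance from the start of the Mir199a-2 hairpin in kb on the x axis. The hairpins (purple) lie 5444 bases apart within Dnm3os (green), and the grey line is the intron of Dnm3 on the opposite strand with its nearest exon.

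Raw values below are brightness readings on a linear scale (the files' Density Median), averaged over the 2 spots of a miRNA. An array's detection limit is the mean of its 16 blank spots plus 3 SD, between 64.0 and 474, and 189 to 1314 miRNAs exceeded it per array. T-C cell replicate 1 stood apart on the first principal component of the normalized levels, at −15.8 against −5.10 to −1.34 on the other T-C cell arrays and 1.63 to 8.05 on the control cell arrays. miR-122-5p, by far the most abundant miRNA in hepatocytes, read 101 to 193 on T-C cell arrays and 57.8 to 178 on control cell arrays, above the limit only on T-C cell replicate 1 (137 against a limit of 133). This defining marker of hepatocytes was thus at or near background in samples labelled as liver. In such bulk samples fewer cells of a type and less RNA per cell cannot be told apart.

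The brightness of each miR-199 and miR-214 probe overlapped between T-C cell and control cell arrays. miR-199a-3p, miR-214-3p and miR-199a-5p were above the limit on all 10 arrays, miR-199b-5p on 9 and miR-214-5p on 4. On every array of both groups the order was miR-199a-3p, miR-214-3p, miR-199a-5p, miR-199b-5p and miR-214-5p, from bright to dim. Probes differ in how strongly they bind and shine, so this order is one of brightness and not of molecules.

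miR-199a-3p, the brightest, which targets mRNAs such as that of mTOR, read 3129.9, 2537, 2914, 3249 and 2803 in T-C cell replicates 1 to 5. In control cell replicates 1 to 5 it read 2993, 1697, 2740.3, 2848 and 2506. The groups overlapped, and control cell replicate 2 was lower than every other array. On that array its 2 spots read 1162 and 2232, a 1.92-fold gap, where the median gap over the tested miRNAs was 1.11-fold. By brightness the probe ranked between 36 and 91 of 1892 on single arrays.

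miR-214-3p read 2072, 1092, 1389, 1753 and 1298 in T-C cell replicates 1 to 5, and 1586, 1309, 1450.5, 1285 and 1260.1 in control cell replicates 1 to 5. T-C cell replicates 1 and 4 were the highest of the 10 arrays and T-C cell replicate 2 the lowest, so the T-C cell values surrounded those of the control cells. Its raw SD was 390.0 in T-C cell samples, against 138 in control cell samples.

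miR-199a-5p read 1433, 674, 872, 1489 and 681 in T-C cell replicates 1 to 5, and 1029, 859.5, 1086, 649.9 and 784 in control cell replicates 1 to 5. Again T-C cell replicates 1 and 4 were the brightest arrays, while the other T-C cell arrays lay within the range of the control cell arrays. miR-199b-5p, from the Mir199b hairpin alone, read 988, 401, 409.8, 940.5 and 458 in T-C cell replicates 1 to 5, and 462, 418, 547, 354 and 435 in control cell replicates 1 to 5. The same T-C cell replicates, 1 and 4, were the only arrays above 547, and T-C cell replicate 3 was the single array where this probe did not reach its limit of 474.

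miR-214-5p, the passenger arm of Mir214, read 274, 138, 320.4, 176 and 206 in T-C cell replicates 1 to 5, and 163, 229.7, 232, 169 and 92.6 in control cell replicates 1 to 5. The groups overlapped. The highest value, in T-C cell replicate 3, did not reach the limit of that array, while the lowest, in control cell replicate 5, exceeded its limit of 64.0. The probe was above the limit on replicates 1 and 5 of both groups and was at most 2.05 times the limit. At this signal over background a difference in miR-214-5p was not detectable unless large.

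**Figure D2:**
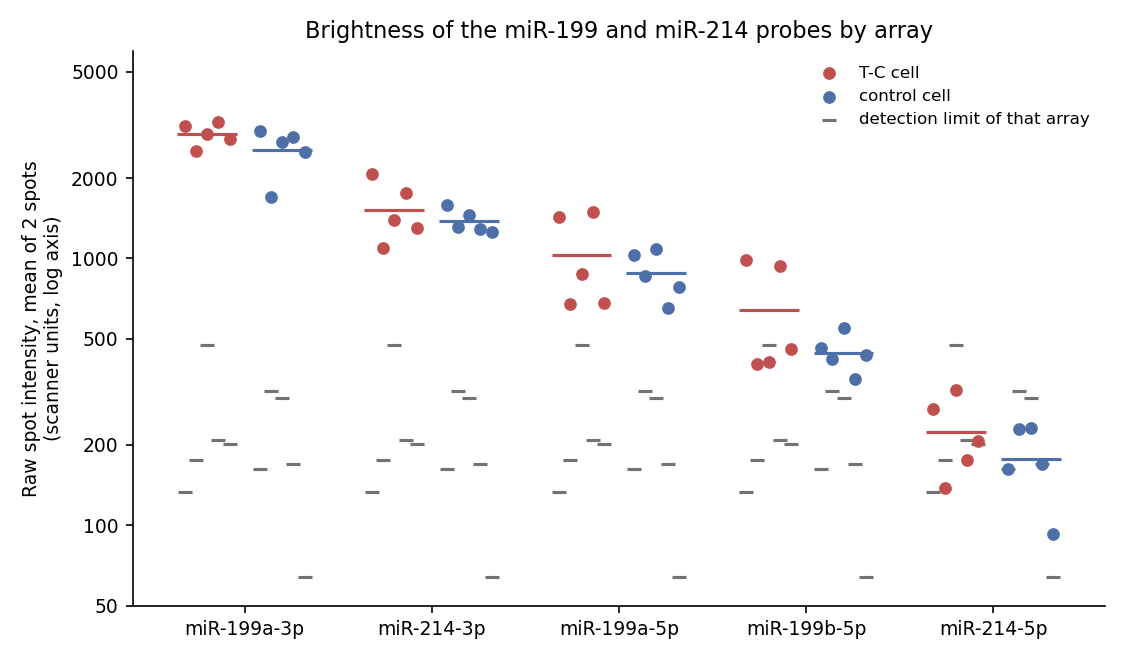
Raw spot intensity (mean of 2 spots, log axis) of the 5 probes on each array, with replicates 1 to 5 from left to right within a group, T-C cell in red and control cell in blue. Horizontal lines are group means and grey dashes the detection limits, and only miR-214-5p lies among the limits on most arrays.

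After normalization, 0 of the 4 tested members differed between T-C cell and control cell samples by limma at an adjusted p of 0.05. Of all 476 tested miRNAs, those detected on at least 5 arrays, 7.77% passed, 1.47% as higher in T-C cell samples and 6.30% as lower. No member had an unadjusted p under 0.05 in limma, where 18.3% of all tested miRNAs did, and the groups overlapped for all 4, whereas they did not for 3.78% of tested miRNAs. Levels here are log2(intensity + 50) after cyclic loess, and differences are taken as T-C cell minus control cell.

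miR-199a-3p stood at 11.47 ± 0.23 in T-C cell samples and 11.30 ± 0.29 in those of control cells (SD, n = 5 each), a difference of 0.17 (SE 0.18, limma adjusted p = 0.701). Its 95% interval ran from 0.863-fold to 1.47-fold. Without control cell replicate 2, the array with the discordant spots, the difference was 0.04. miR-214-3p stood at 10.52 ± 0.17 in T-C cell samples and 10.49 ± 0.09 in those of control cells (SD, n = 5 each), a difference of 0.03 (SE 0.14, limma adjusted p = 0.937). Its interval, from 0.831-fold to 1.25-fold, was the tightest of the 4 tested members.

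miR-199a-5p stood at 9.95 ± 0.28 in T-C cell samples and 9.88 ± 0.24 in those of control cells (SD, n = 5 each), a difference of 0.06 (SE 0.18, limma adjusted p = 0.901) with an interval from 0.794-fold to 1.37-fold. miR-199b-5p stood at 9.30 ± 0.29 in T-C cell samples and 9.02 ± 0.19 in those of control cells (SD, n = 5 each). Its difference of 0.28 (SE 0.18, limma adjusted p = 0.536) was the highest of the members, with an interval from 0.921-fold to 1.59-fold. T-C cell replicates 1 and 4, which had stood far above the rest in raw brightness, were at 9.51 and 9.69 after normalization, against 9.05 to 9.13 on the other T-C cell arrays and 8.72 to 9.18 on the control cell arrays.

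For miR-214-5p, which failed the detection filter, the fit over all 1892 miRNAs gave 8.02 ± 0.23 in T-C cell samples and 7.93 ± 0.14 in those of control cells (SD, n = 5 each) and a difference of 0.09 (SE 0.11, limma adjusted p = 0.919). In that fit 0.0529% of miRNAs passed. Its interval, from 0.899-fold to 1.26-fold, comes from values near background, where the added 50 and the background shrink any log difference. Without T-C cell replicate 1, which had its highest normalized level of 8.40, the difference was −0.02.

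All 4 tested members had intervals inside 2-fold in either direction, as did 81.3% of tested miRNAs, so the bound is not particular to them. Under median centring only 1 of the 4 kept it, with log2 upper bounds of 1.06 for miR-199a-3p, 1.01 for miR-199a-5p and 1.24 for miR-199b-5p. With blanks subtracted miR-199b-5p passed it as well, at 1.03. All 4 differences were positive, where 52.9% of the tested miRNAs had a positive difference, with a median of 0.02. The members share hairpins and, on the 5p side, nearly a probe, so their signs are not independent. Their SD within groups was 0.14 to 0.27, below the median of 0.29 over all tested miRNAs. Leaving out T-C cell replicate 1, the array that stood apart, gave differences of 0.26 for miR-199a-3p, 0.04 for miR-214-3p, 0.06 for miR-199a-5p and 0.21 for miR-199b-5p, and 0 of the 4 passed in limma.

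**Figure D3:**
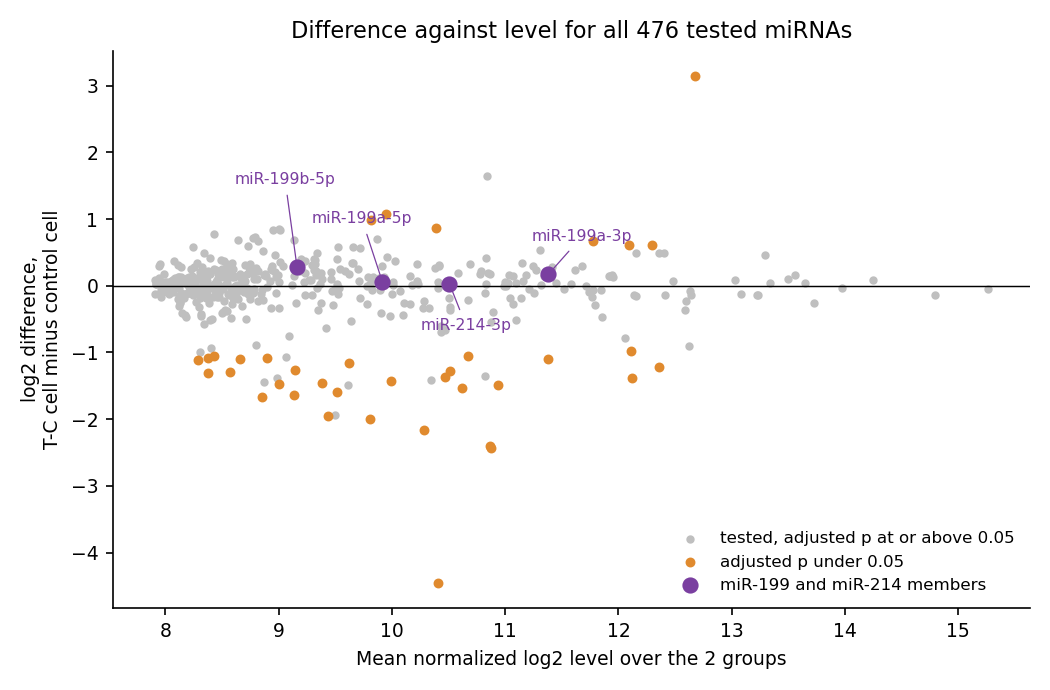
The x axis is the mean normalized log2 level of each tested miRNA over the groups, and the y axis its log2 difference, T-C cell minus control cell. The 4 tested members (purple) lie between 0.03 and 0.28 in the grey band of miRNAs that did not pass, and those that passed are orange, with miR-29a-3p lowest at −4.45.

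The trinucleotide ACC, present in 28 of the 30 miRNAs that fell and read in the printed strand alone, is held by 26.1% of the tested miRNAs, 124 in all. Among the members it occurs in miR-199a-5p and miR-199b-5p and not in the other 3. Those 2 differed by 0.06 and 0.28 and did not pass, while the tested miRNAs with ACC had a median difference of −0.13. The counts for ACC come from the calls of this same fit, so they are a description and not a test.

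Ratios within an array are free of a scaling factor common to that array. Background was not subtracted, however, and the blank mean ran from 54.9 to 227 between arrays, so a ratio with a dim probe can shift with the array. The ratios compare how the 5p and 3p probes, and the probes matching Dnm3os hairpins, stood to each other. They were taken from unnormalized log2(intensity + 50), and differences in probe brightness leave their absolute size without a meaning in molecules. The log2 ratio of miR-199a-5p over miR-199a-3p was −1.10, −1.84, −1.68, −1.10 and −1.97 in T-C cell replicates 1 to 5. In control cell replicates 1 to 5 it was −1.50, −0.87, −1.30, −2.05 and −1.62. The 3p probe was the brighter on every array, and both groups spanned nearly the same range. The means were −1.54 ± 0.41 in T-C cell samples and −1.47 ± 0.43 in those of control cells (SD, n = 5 each), a difference of −0.07 (95% interval −0.65 to 0.51, limma adjusted p = 0.816 over 68 hairpins with both arms tested, of which 10.3% passed). The 3p probe also reads Mir199b, whose 5p arm has its own probe, so this is not the ratio of a single hairpin. From the lowest 5p over 3p ratio upwards the pair ranked 14 of 68, and its SD over the 10 arrays of 0.40 lay below the median of 0.49. Control cell replicate 2, with the low miR-199a-3p spot, had the highest ratio, and without that array the difference was 0.08. Control cell replicate 4 had the lowest ratio, and without that array the difference was −0.22.

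For miR-214 the 5p over 3p ratio was −2.53 ± 0.39 in T-C cell samples and −2.69 ± 0.38 in those of control cells (SD, n = 5 each). It ran from −2.997 to −1.96 on T-C cell arrays and from −3.20 to −2.28 on control cell arrays, which overlapped. The difference was 0.16 (95% interval −0.37 to 0.68, limma adjusted p = 0.951 over 732 hairpins without a filter, of which 0.137% passed). The 5p probe was under the limit on 6 of 10 arrays, so there this ratio holds background in place of a level. With cyclic loess levels the difference was 0.06 and with quantile normalization −0.16.

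miR-214-3p and miR-199a-3p are the brighter arms of the hairpins in Dnm3os, but the miR-199a-3p probe also reads Mir199a-1 and Mir199b elsewhere. Their ratio is therefore not one within a single transcript. The log2 ratio of miR-214-3p over miR-199a-3p was −0.58, −1.18, −1.04, −0.87 and −1.08 in T-C cell replicates 1 to 5. In control cell replicates 1 to 5 it was −0.89, −0.29, −0.89, −1.12 and −0.96. T-C cell replicate 1 and control cell replicate 2 were the highest of their groups. The means were −0.95 ± 0.23 in T-C cell samples and −0.83 ± 0.32 in those of control cells (SD, n = 5 each), a difference of −0.12 (exact two-sided permutation p = 0.532, where 5 against 5 can give no less than 0.00794). Without control cell replicate 2 the difference was 0.02, and with the second spot of each probe alone it was −0.0061.

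The ratio of the near-identical probes miR-199a-5p and miR-199b-5p was 0.68 ± 0.21 in T-C cell samples and 0.91 ± 0.12 in those of control cells (SD, n = 5 each, log2). It ran from 0.51 to 1.02 on T-C cell arrays and from 0.78 to 1.08 on control cell arrays. This ratio was added after its values were seen and was not tested.

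**Figure D4:**
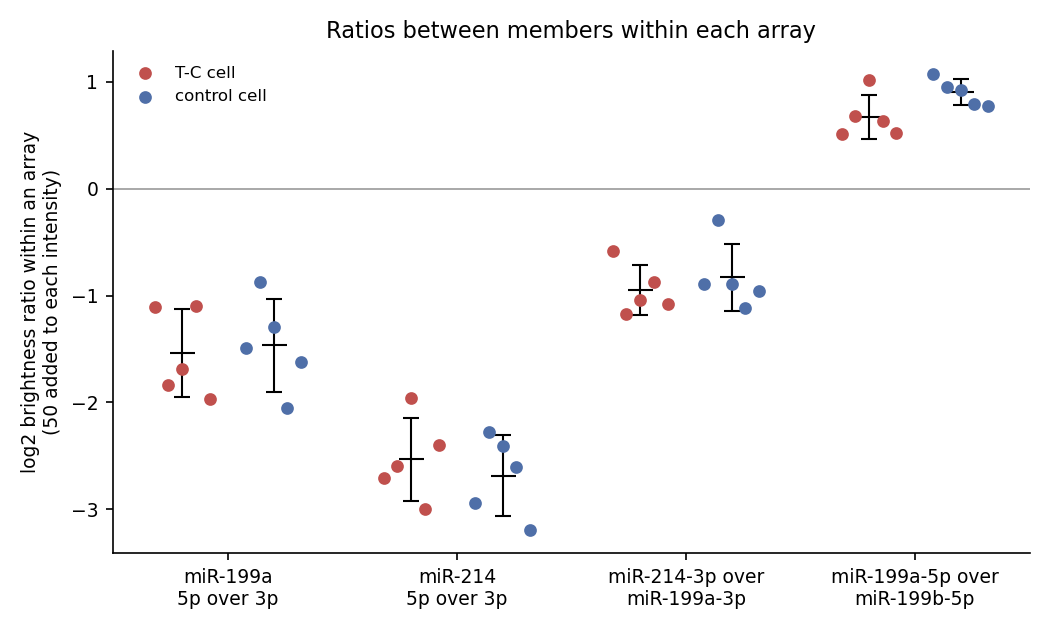
Log2 brightness ratios between members on each array, T-C cell in red and control cell in blue, with bars for mean and SD (n = 5 each). The groups overlap in all 4 ratios, and control cell replicate 2 is the high point at −0.29 in the ratio of miR-214-3p over miR-199a-3p.

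How constant the ratio of 2 miRNAs was over the arrays was described by the SD of their log2 ratio over the 10 arrays. This SD is also small where both miRNAs hardly vary, so it does not by itself show that they rose and fell together. It was taken on the cyclic loess levels, unlike the ratios above. It is a description, since both values come from the same libraries. Between miR-214-3p and miR-199a-3p it was 0.24, and 12 of the 472 tested miRNAs outside the family lay closer to miR-199a-3p, for which the median was 0.41. Seen from miR-214-3p the pair was less close, with 111 of 472 closer to it and a median of 0.33. Between miR-199a-5p and miR-199b-5p it was 0.21, with 13 of 472 closer to miR-199a-5p. Between miR-199a-5p and miR-199a-3p it was 0.38, with 203 of 472 closer to miR-199a-3p. For miR-214-5p, at or near background on most arrays, such a value says little and is not given. Among the 238 tested miRNAs outside the family that varied at least as much as the median one, miR-200c-3p (0.20), miR-99b-5p (0.25) and miR-195a-5p (0.28) were nearest to miR-199a-3p. Among the same 238, the nearest to miR-214-3p were miR-328-3p (0.26), miR-6975-3p (0.27) and miR-130a-3p (0.27), and miR-130a-3p was the nearest to miR-199a-5p (0.14).

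Other miRNAs of mesenchymal cells gave 0 calls as well. Of 18 listed mesenchymal miRNAs, 14 were tested and 0 passed in limma in either direction. The median difference was 0.01, beside 0.02 over all tested miRNAs, but single differences went both ways. They ran from −0.45 to 0.70, and 7 of the 14 were positive. At an unadjusted p of 0.05, 4 of the 14 passed. Over all tested miRNAs 7.77% passed the adjusted and 18.3% the unadjusted threshold. miR-143-3p and miR-145a-5p, the cluster of smooth muscle and pericytes, differed by −0.04 (SE 0.17) and 0.08 (SE 0.16). They were far brighter than the miR-199 and miR-214 probes, at 10434 to 23278 and 15029 to 27162 on T-C cell arrays and 15277 to 18422 and 18326 to 22295 on control cell arrays. The smallest p-values were those of miR-100-5p, a partner of let-7 (difference 0.58, limma adjusted p = 0.110), miR-376b-3p, of the imprinted Dlk1-Dio3 cluster (−0.45, adjusted p = 0.158), and miR-10b-5p, of the Hoxd locus (0.70, adjusted p = 0.185).

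**Figure D5:**
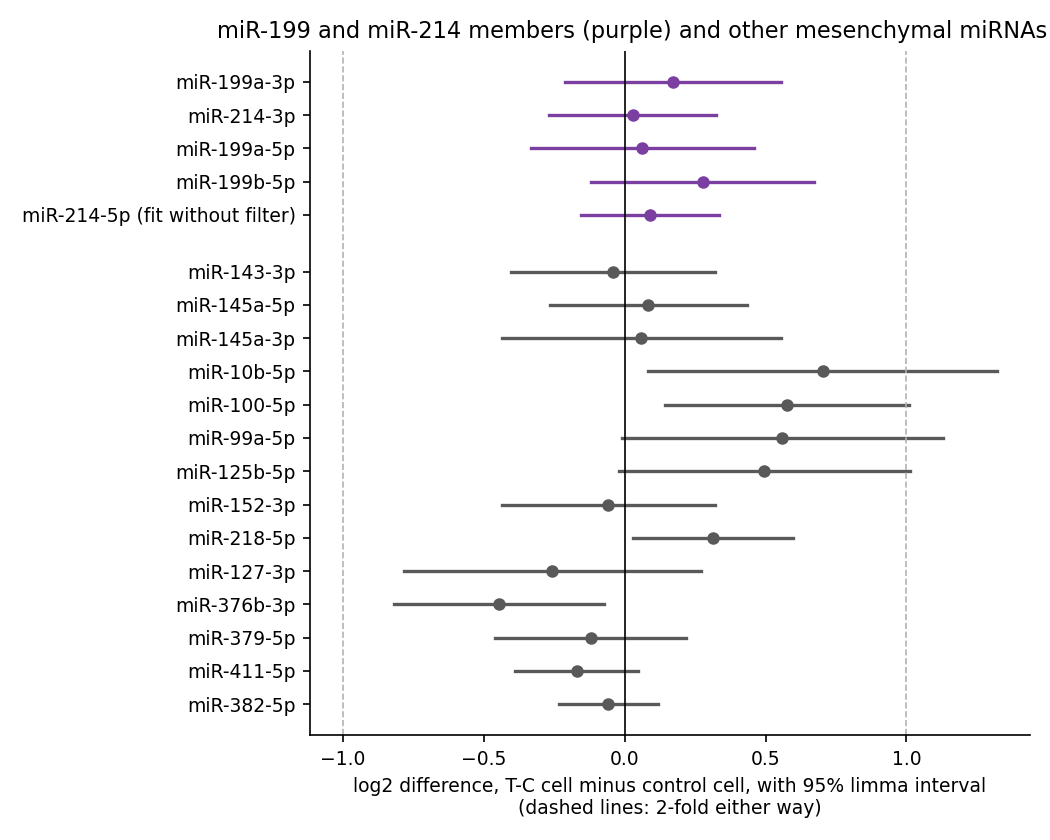
Log2 differences, T-C cell minus control cell, with 95% limma intervals for the 5 miR-199 and miR-214 members (purple) and the 14 tested mesenchymal miRNAs (grey). The 4 tested members have intervals between −0.33 and 0.67, and miR-214-5p comes from the fit without a filter.

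Of 16 miRNAs linked to fibrosis, 15 were tested, of which 1 rose, 1 fell and 13 did not pass in limma, with a median difference of −0.08. At an unadjusted p of 0.05 in limma, 4 of the 15 passed. Of all tested miRNAs 1.47% rose, 6.30% fell and 18.3% passed the unadjusted threshold, with a median difference of 0.02. The one that fell was miR-29a-3p, a repressor of collagen genes that drops in fibrotic liver, with a difference of −4.45 (SE 0.21, limma adjusted p = 3.74e-08). The one that rose was miR-150-5p, also a lymphocyte miRNA, with 0.86 (SE 0.23, limma adjusted p = 0.0433). That call was lost in 12 of 22 alternatives (limma adjusted p from 0.0223 to 0.876 over all 22). Among these were leaving out T-C cell replicate 1, 4 or 5, or control cell replicate 1, 2, 3 or 5, which gave limma adjusted p from 0.0839 to 0.109. miR-29b-3p, the next by p, differed by −0.88 (limma adjusted p = 0.0932), while the third of that family, miR-29c-3p, differed by 0.19 (SE 0.34, limma adjusted p = 0.835). miR-21a-5p, which is raised in many injured tissues, differed by −0.26 (SE 0.13, limma adjusted p = 0.362).

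For other cell types that a liver sample could hold, the summed raw brightness of the listed miRNAs overlapped between the groups. Beside the counts below, 7.77% of all tested miRNAs passed in limma, 1.47% as higher, and 18.3% had an unadjusted p under 0.05. Hepatocyte miRNAs summed to 21841 to 46808 on T-C cell and 24161 to 37570 on control cell arrays, and 0 of 6 tested passed in limma (0 at an unadjusted p of 0.05), with miR-215-5p at 0.53. Much of that sum came from miR-192-5p (9933 to 13592 on T-C cell and 7608 to 18241 on control cell arrays) and miR-194-5p (6697 to 20165 on T-C cell and 9576 to 13614 on control cell arrays), which gut epithelium also makes. Control cell levels of miR-192-5p ran from 10.61 to 14.13 after normalization, with an SD of 1.40 against 0.18 in T-C cell samples. Levels average the logs of the 2 spots, while no control cell array had a raw 2-spot mean under 7608. Whether 1 dim spot gave the low level was not tested. The more specific miR-122-5p, miR-122-3p and miR-802-5p were above the limit on 1 of 10 arrays each and not tested. Epithelial miRNAs summed to 23039 to 38112 on T-C cell and 22349 to 37287 on control cell arrays, and 0 of 7 passed in limma (0 unadjusted), with miR-375-3p at −0.51. Leukocyte miRNAs summed to 3475 to 8398 on T-C cell and 3267 to 4521 on control cell arrays, and 1 of 7 rose in limma, miR-150-5p (2 unadjusted), while miR-342-3p differed by 0.38. The call of miR-150-5p is the same one counted among the fibrosis miRNAs, lost in 12 of 22 alternatives. The median difference of the leukocyte miRNAs was 0.34, and 6 of the 7 differences were positive. Over all tested miRNAs the median was 0.02, and 52.9% were positive. The endothelial miR-126a-3p differed by −0.01 (limma adjusted p = 0.987), and miR-126a-3p and miR-126a-5p together read 2873 to 5221 on T-C cell and 3023 to 3910 on control cell arrays. Muscle miRNAs summed to 2666 to 4136 on T-C cell and 3635 to 4971 on control cell arrays, and 0 of 4 passed in limma (2 unadjusted), with miR-133b-3p at −0.70. The other arm, miR-133b-5p, was outside the list and differed by 3.14 (SE 0.83, limma adjusted p = 0.0419), with overlapping groups. The part of any of these cell types in the levels of the miR-199 and miR-214 probes was not tested.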

How the data were processed

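The deposited files, 1 per sample, hold for each of 3968 spots a median intensity on a linear scale, raw values as the authors deposited them, per the file headers. Per the labels, 1 µg of total RNA was tailed with poly(A), tagged and stained with Cy3 by LC Sciences. The file headers also carry array numbers, among which the control cell arrays fall above T-C cell replicate 1 and below the other T-C cell arrays. No source says what the numbers mean, and they were not used as batches.

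Intensities became log2(intensity + 50), the mean of the 2 spots was taken, and cyclic loess (limma) put the arrays on 1 scale. miRNAs above the detection limit on at least 5 of 10 arrays were compared with limma (eBayes with a trend, two-sided, Benjamini-Hochberg over 476 miRNAs; limma 3.58.1, R 4.3.3, jsonlite 2.0.0). Arm ratios were fitted the same way over all hairpins with both arms. Sequences were matched to RefSeq and GENCODE with Python 3.11.15 (pandas 2.3.3, matplotlib 3.10.9), and all 5 probe sequences were found in a hairpin. A check of the fits on simulated data was made, but its outcome is not reported here. The number of arrays limits the precision.

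The members, the lists and the tests were chosen with earlier results of these data known. Named in the text are the members, per list up to 3 miRNAs with the smallest p and any that passed, the 3 nearest by log2 ratio, and miR-122-5p, miR-21a-5p, miR-143-3p, miR-145a-5p and miR-29a-3p. miR-761, miR-126a-5p, miR-29c-3p, miR-194-5p, miR-122-3p, miR-802-5p and miR-133b-5p were named after their values were seen. miR-142a of the lists is miR-142 on the array. The alternatives were other scalings, added constants, filters, spots and fits, the replicate number as a block, and leaving out each array.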

Additional observations from a re-analysis of the deposited data

Results flagged for a closer look

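The log2 ratio of miR-214-3p over miR-199a-3p had 1 control cell array far from the others: control cell replicate 2 stood at −0.29 and the other control cell arrays between −1.12 and −0.89. The gap to the nearest array was 0.724 of the group's range, above Dixon's critical value of 0.71 for 5 samples. This was 1 of 18 groups of values examined, and chance flags about 1 in 20. On that array the 2 miR-199a-3p spots read 1162 and 2232 and the 2 miR-214-3p spots 1330 and 1289.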

How the results depend on the processing

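No member difference and no ratio difference passed its threshold in any of the alternatives run for it, which gave limma adjusted p from 0.419 to 1.00 for the members. The difference of miR-199a-3p stayed positive in 22 of 22 alternatives (0.04 to 0.31) and that of miR-199b-5p in 21 of 21 (0.16 to 0.39). Small differences changed sign, and the cause was not tested. With array weights they were −0.10 for miR-199a-5p, −0.025 for miR-214-3p and −0.044 for miR-214-5p. miR-214-3p was also −0.0012 under median centring and −0.029 with the first spot only. With quantile normalization the miR-214 arm ratio differed by −0.16 and the ratio of miR-214-3p over miR-199a-3p by 0.0064.

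Leaving out 1 array in turn gave 0.04 to 0.26 for miR-199a-3p, −0.026 to 0.13 for miR-199a-5p, 0.17 to 0.33 for miR-199b-5p, −0.048 to 0.075 for miR-214-3p and −0.023 to 0.14 for miR-214-5p. The arm ratios ran from −0.22 to 0.078 for miR-199a and from 0.01 to 0.27 for miR-214, and miR-214-3p over miR-199a-3p from −0.21 to 0.016. The number of miRNAs called over all tested, 37, was 14 under median centring, 3 with blanks subtracted, 1 with all miRNAs tested, 18 among those detected on all 10 arrays, and 1 to 44 without single arrays.

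With the replicate number as a block, 22 miRNAs passed, and no member or ratio did. Titles number the samples of both groups 1 to 5, but the deviations of same-numbered arrays correlated at −0.20 to 0.26 and only replicate 5 went best with its own number, so the numbers were not taken as pairs. Median centring or no normalization leaves within-array ratios as they are. Cyclic loess levels for the ratios, and the alternatives for miR-29a-3p and miR-150-5p, were chosen after seeing the data. The filter on all 10 arrays left out miR-199b-5p and miR-214-5p, and background limits what can be said of miR-214-5p.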
